A study of Saccharomyces cerevisiae with 4 samples.

Results

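The genes of trehalose synthesis and breakdown in budding yeast (Saccharomyces cerevisiae) were followed in an slt2 mutant whose cell wall was attacked with zymolyase. They are 10 genes, chosen by reading frame, out of 6207 reading frames on the arrays: TPS1, TPS2, TPS3 and TSL1 of the synthase complex, the trehalases NTH1, NTH2 and ATH1, and PGM1, PGM2 and UGP1, which supply the activated sugar. Of the 10, 8 had a value on all 4 arrays and could be tested. TPS1 lacked a value on array 3 and ATH1 lacked a value on array 4. Both are described from 3 arrays.

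Trehalose is a disaccharide of glucose that yeast stores as a reserve and that protects proteins and membranes during stress. Glucose 6-phosphate is turned into glucose 1-phosphate by the phosphoglucomutases Pgm1 and Pgm2, and Ugp1 makes UDP-glucose from it. The synthase Tps1 joins UDP-glucose with a further glucose 6-phosphate, the phosphatase Tps2 removes the phosphate, and Tps3 and Tsl1 are the regulatory subunits that hold the complex together. Trehalases split the sugar back into glucose. UDP-glucose is also the building block of glycogen and of wall glucan, the polymer that zymolyase digests.

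Every array compared treated and untreated portions of a culture, by its title of the slt2 mutant, grown in rich glucose medium (YEPD) at 24 °C. One portion had received zymolyase 100T at 5 units per ml and the other none, and both were collected at 3 h. SLT2 encodes the last kinase of the cell wall integrity pathway, and the titles of all 4 arrays name the mutant. Neither the allele nor the strain background is named in the labels. RNA from 2 cultures went onto 4 arrays, with Cy3 on the treated portion for arrays 1 and 3 and Cy5 for arrays 2 and 4. Which arrays share a culture is not labelled. The treated channel of array 3 carries a source label naming wild type, against its title, and SLT2 (YHR030C) had a value on 0 arrays, so the genotype could not be checked. The arrays compare total RNA of whole cultures, so a change in every cell and a change in part of the cells cannot be told apart.

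Across genes, each pair of arrays with swapped dyes had a negative correlation (r between -0.60 and -0.29), and the deposited values were therefore read as ratios of the dyes. Arrays 2 and 4 were multiplied by -1 to bring all 4 to one orientation, giving what is called here the turned log2 ratio. A positive turned value means more transcript with zymolyase if the authors divided Cy3 by Cy5, and less if they divided Cy5 by Cy3. The sources used here do not settle this, so values are given as sizes on a positive or a negative side and never as induction or repression. The base of the logarithm is not stated either and was taken as 2. Arrays 1 to 4 held values for 5402, 5434, 5201 and 4931 reading frames, and 4788 were complete. Precision is limited by how few arrays there are.

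Synthase subunits, a trehalase and the supply enzymes PGM2 and UGP1 lay together on the positive side. Of the 8 tested genes, 5 changed, all on that side: TPS2, TSL1, PGM2, UGP1 and NTH1 (limma, adjusted p under 0.05). Over all 4788 tested genes, 4.55% changed on either side, 4.34% on the positive and 0.209% on the negative side. The median of the 8 was 0.94, against -0.057 over all tested genes, and 0 changed on the negative side (limma, 0 at an unadjusted p under 0.05). Of the 8, 7 kept one side over the 4 arrays, as did 30.3% of all tested genes. For scale, the stress gene HSP12 (YFL014W), a small heat shock protein, had a mean of 2.63 ± 0.58 (SD, n = 4) and the catalase gene CTT1 (YGR088W) 2.84 ± 0.58 on the same side. Without array 1 the count of trehalose genes was 2, TSL1 and PGM2, against 1.59% of all genes called.

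**Figure D1:**
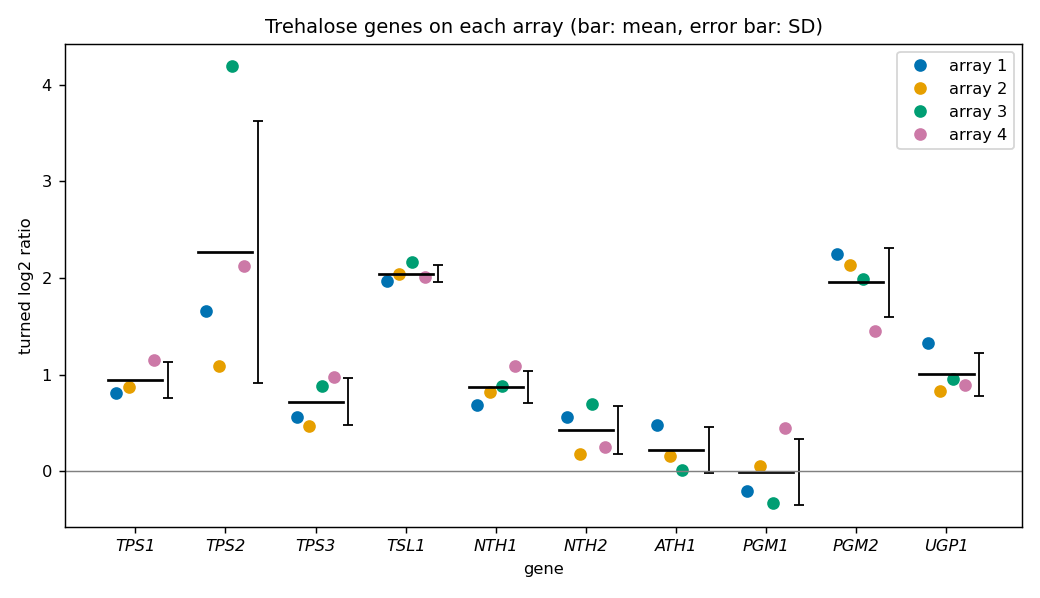
Turned log2 ratio (zymolyase against untreated, side unsettled) of each trehalose gene on arrays 1 to 4. Points are arrays, the horizontal bar is their mean and the error bar beside it the SD over 4 arrays, or 3 for TPS1 and ATH1. TSL1 sits between 1.97 and 2.16 on every array, TPS2 reaches 4.20 on array 3, and PGM1 lies on both sides of 0.

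TPS1 (YBR126C), the synthase itself, had turned log2 ratios of 0.81, 0.87 and 1.15 on arrays 1, 2 and 4. All 3 lay on the positive side and close together, with a mean of 0.95 ± 0.18 (SD, n = 3), or 1.93-fold. On each of these arrays it was above 96.4% to 97.1% of the tested genes. With genes measured on at least 3 arrays admitted, it was called (limma, adjusted p = 0.00318, 4.15% of 5203 genes called).

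TPS2 (YDR074W), the phosphatase that completes the sugar, had the largest mean of the tested members and also the widest spread. Its turned log2 ratios were 1.65, 1.09, 4.20 and 2.13 on arrays 1 to 4. Array 3 stood far above the other 3, and all 4 lay on the positive side. The mean was 2.27 ± 1.35 (SD, n = 4), or 4.81-fold (limma, adjusted p = 2.08e-06), and 1.62 without array 3. The spread was above that of 99.4% of tested genes, while the standard error in the deciding pairing, which draws on all genes, was 0.15. In the other pairing it was 0.24, as for every gene, although the means were 1.37 on arrays 1 and 2 and 3.16 on arrays 3 and 4. The small p thus leaves out much of this spread. It was 0.0110 with the 4 arrays as separate replicates and 0.0143 with a random culture block (limma, adjusted p). Without array 1 the call of TPS2 was lost (limma, adjusted p = 0.0585), at a mean of 2.47 over the other 3 arrays. Leaving out array 3, which carries the conflicting label, kept the call.

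TSL1 (YML100W), a regulatory subunit, gave the most even values of the members. Its turned log2 ratios were 1.97, 2.04, 2.16 and 2.02 on arrays 1 to 4. The SD of 0.084 was above that of 2.53% of tested genes, and the mean of 2.05 was a 4.13-fold difference (limma, adjusted p = 4.03e-07). It ranked 25 of 4788 from the top by its mean and stood above 98.8% to 99.6% of genes on each array.

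TPS3 (YMR261C), the other regulatory subunit and the paralogue of TSL1, was smaller. The 4 arrays gave 0.56, 0.47, 0.88 and 0.98, all on the positive side, with a mean of 0.72 ± 0.25 (SD, n = 4), or 1.65-fold. It did not pass the test (limma, adjusted p = 0.0640), although it did after centring each array on its median (0.0317) and with the 4 arrays taken as separate replicates (0.0238). Over its alternatives the adjusted p ran from 0.000469 to 0.243. Its values on arrays 3 and 4 were above both values on arrays 1 and 2.

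Of the 3 trehalases, 1 changed. NTH1 (YDR001C), the main neutral trehalase, known to be activated through protein kinase A and the Bmh proteins, had turned log2 ratios of 0.69, 0.82, 0.88 and 1.09. All 4 lay within a narrow range on the positive side. Its mean of 0.87 ± 0.16 (SD, n = 4), or 1.83-fold, passed the test (limma, adjusted p = 0.0104). The deciding pairing gave every gene a standard error of 0.24, so this p rests on the mean and not on the narrow range. With the 4 arrays as separate replicates the adjusted p was 0.00604 (limma). The call was lost without array 1 (mean 0.93, adjusted p = 0.0931) or array 2 (mean 0.89, adjusted p = 0.0687).

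NTH2 (YBR001C), the paralogue of NTH1, had 0.56, 0.18, 0.70 and 0.25. Both arrays with Cy3 on the treated portion were above both with Cy5, and the mean of 0.42 ± 0.25 (SD, n = 4) did not pass (limma, adjusted p = 0.550). It passed with arrays 1 and 4 and arrays 2 and 3 taken as the cultures, the pairing that called 1415 genes in all (adjusted p = 0.0113). ATH1 (YPR026W), the acid trehalase that acts outside the cytosol, had 0.48, 0.16 and 0.019 on arrays 1 to 3, a mean of 0.22 ± 0.24 (SD, n = 3). With at least 3 arrays admitted it was not called (limma, adjusted p = 0.918). Enzymes that make trehalose and the trehalase NTH1 thus lay on the same side.

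The supply enzymes split sharply between the phosphoglucomutase isozymes. PGM2 (YMR105C), the major isozyme, had turned log2 ratios of 2.25, 2.14, 1.99 and 1.45 on arrays 1 to 4. Every array was well on the positive side, array 4 lowest, with a mean of 1.96 ± 0.36 (SD, n = 4), or 3.88-fold (limma, adjusted p = 6.4e-07). UGP1 (YKL035W), UDP-glucose pyrophosphorylase, had 1.33, 0.83, 0.96 and 0.90. Its mean was 1.00 ± 0.22 (SD, n = 4), or 2.01-fold (limma, adjusted p = 0.00146). Without array 1, its highest, the mean was 0.90 and the call was lost (adjusted p = 0.101).

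PGM1 (YKL127W), the minor phosphoglucomutase, had turned log2 ratios of -0.20, 0.052, -0.32 and 0.45. The arrays lay on both sides and the mean was -0.0066 ± 0.34 (SD, n = 4; limma, adjusted p = 0.996). As deposited, before turning, PGM1 was below 0 on all 4 arrays, at -0.20, -0.052, -0.32 and -0.45, the same sign under both dye orientations. It was the 1 member of 8 with the same deposited sign on every array, and 12.1% of all tested genes had one, so that this count is near the background. The mean of its deposited values, its dye component, was -0.26, and 17.4% of tested genes had a dye component at least as large in size.

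**Figure D2:**
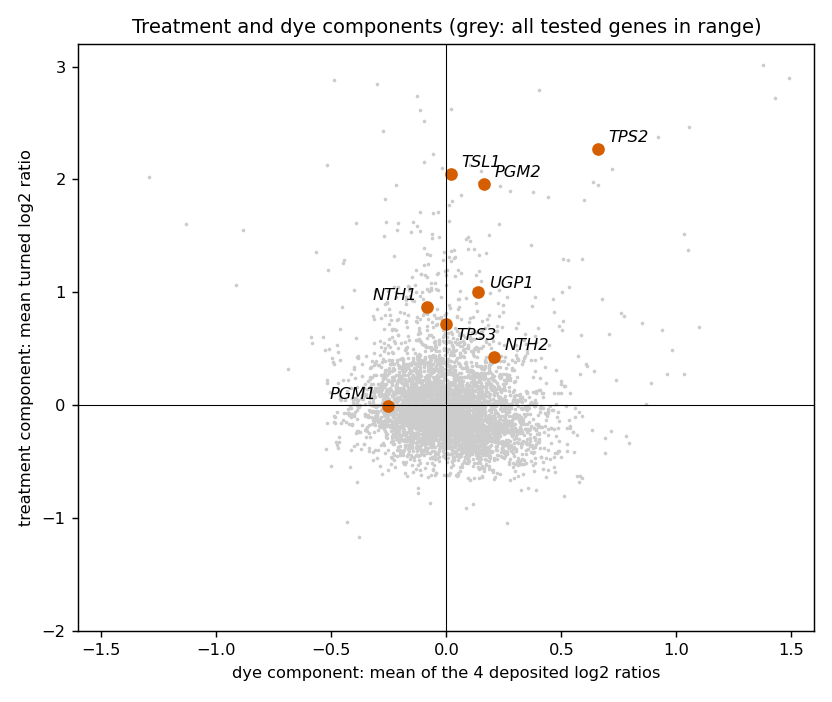
Mean turned log2 ratio (treatment component, vertical) against the mean deposited log2 ratio (dye component, horizontal) of the 8 trehalose genes measured on all arrays, in orange, and of tested genes within the plotted range, in grey. TSL1 and TPS3 lie at dye components of 0.019 and -0.0033, PGM1 at -0.26 with a treatment component of -0.0066, and TPS2 at 0.66.

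Dye components of the other members varied. TSL1 had 0.019, TPS3 -0.0033, NTH1 -0.084, UGP1 0.14, PGM2 0.16 and NTH2 0.21. TPS2 had 0.66, a size reached by 0.731% of tested genes. With a dye term in the model the same 5 genes were called, with TPS3 beside them, where 3.86% of all genes were (limma, adjusted p = 0.0332 for TPS3 and 0.00790 for TPS2).

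Within all 3 paralogue pairs the same partner had the larger turned log2 ratio on every array. PGM2 exceeded PGM1 by 2.45, 2.09, 2.31 and 1.00 on arrays 1 to 4, a mean difference of 1.96 ± 0.66 (SD, n = 4). TSL1 exceeded TPS3 by 1.41, 1.57, 1.29 and 1.03, a mean of 1.32 ± 0.23. NTH1 exceeded NTH2 by 0.13, 0.65, 0.18 and 0.83, a mean of 0.45 ± 0.35. All 3 differences were larger than their SD. The exact two-sided sign-flip permutation test gave p = 0.125 for each pair (adjusted over the 3 pairs, 0.125), the smallest that 4 arrays allow, so the design cannot reach the threshold. This test flips arrays one by one, although they hold RNA of 2 cultures, and flipping by culture could not go below 0.5. These are differences between ratios, not between transcript levels. The make-up of the spots is unknown here, and hybridisation of one partner to the spot of the other was not tested.

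**Figure D3:**
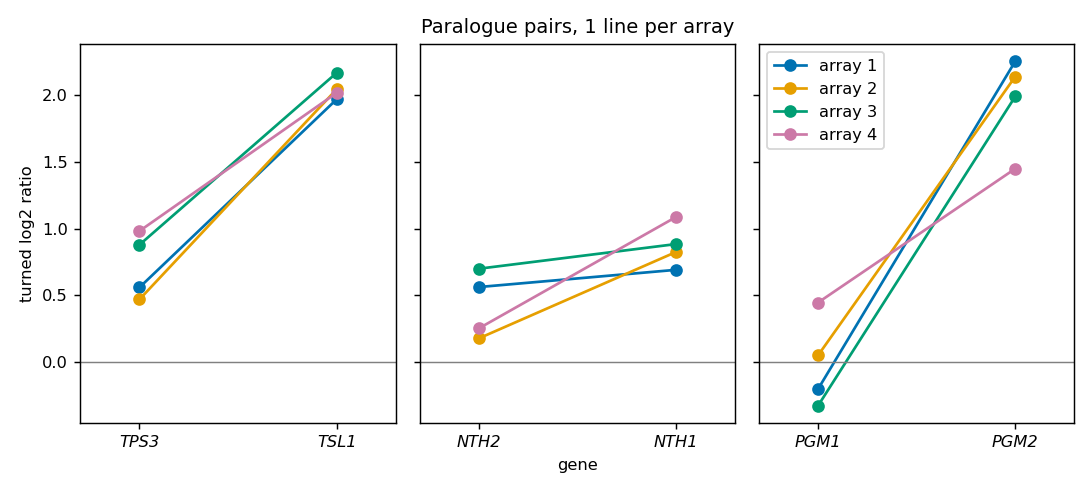
Turned log2 ratio of both genes of each paralogue pair, with 1 line per array. All 12 lines run upward from TPS3 to TSL1, from NTH2 to NTH1 and from PGM1 to PGM2, with array 4 shallowest for PGM2 (1.00) and TSL1 (1.03) and steepest for NTH1 (0.83).

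The 8 tested members were ordered by mean, and each was compared with the next. At the top, with means of 2.27, 2.05 and 1.96, neither TPS2 and TSL1 nor TSL1 and PGM2 differed beyond the spread over arrays, and both pairs were in that order on 2 of 4 arrays. The step from PGM2 down to UGP1 was 0.95 ± 0.31 (SD, n = 4) and held on all 4 arrays. It does not part TPS2 as evenly from UGP1. TPS2 had 1.65 and 1.09 on arrays 1 and 2, against 1.33 and 0.83 for UGP1. On arrays 3 and 4 TPS2 had 4.20 and 2.13, against 0.96 and 0.90. Below this step, UGP1 and NTH1 differed by 0.13 ± 0.35. NTH1 was above TPS3 on all 4 arrays, by 0.15 ± 0.15. TPS3 and NTH2, and NTH2 and PGM1, differed by less than their SDs.

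**Figure D4:**
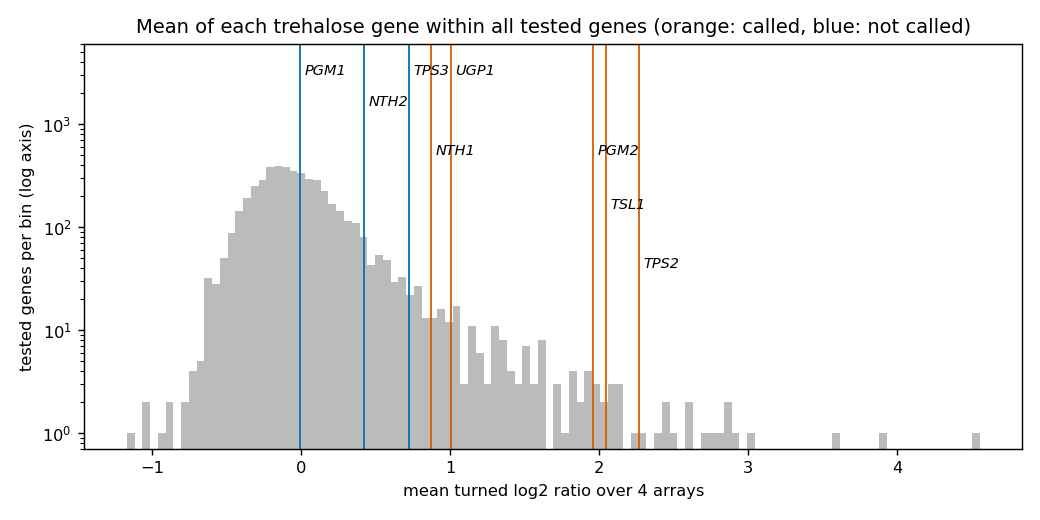
Mean turned log2 ratio over 4 arrays for all 4788 tested genes (grey histogram, log axis of genes per bin), with vertical lines at the 8 trehalose genes, orange where called and blue where not. TPS2, TSL1 and PGM2 stand at ranks 17, 25 and 29 from the top, and PGM1 is near the middle of the distribution.

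The arrays differed among themselves in a way that touches long genes. Spearman's rho of the turned log2 ratio with coding length across 4578 genes was -0.013 and -0.18 on arrays 1 and 2, and 0.45 and 0.40 on arrays 3 and 4. These genes share their array and are not independent, and no p is given. Several members are long, with coding lengths of 3297 bases for TSL1, 3165 for TPS3, 2691 for TPS2 and 2256 for NTH1, against 1710 for PGM2 and 1500 for UGP1 (R64 gene table).

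Between the pairs of arrays, TSL1 kept its size, with means of 2.00 on arrays 1 and 2 and 2.09 on arrays 3 and 4. TPS2 had 1.37 and 3.16, TPS3 0.51 and 0.93, and NTH1 0.76 and 0.98. NTH2, of 2343 bases, had 0.37 and 0.48, and PGM1, of 1713 bases, -0.074 and 0.061. The pairs differed in the opposite direction for PGM2, with 2.19 and 1.72, and UGP1, with 1.08 and 0.93. After the trend with coding length was removed on each array, TSL1 had a mean of 1.89, TPS2 2.10, PGM2 1.89 and UGP1 0.97, all still called, with 2.53% of 4578 genes called in all. NTH1 then had 0.73 and was not called (limma, adjusted p = 0.0519), and TPS3 had 0.56 (0.111).

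**Figure D5:**
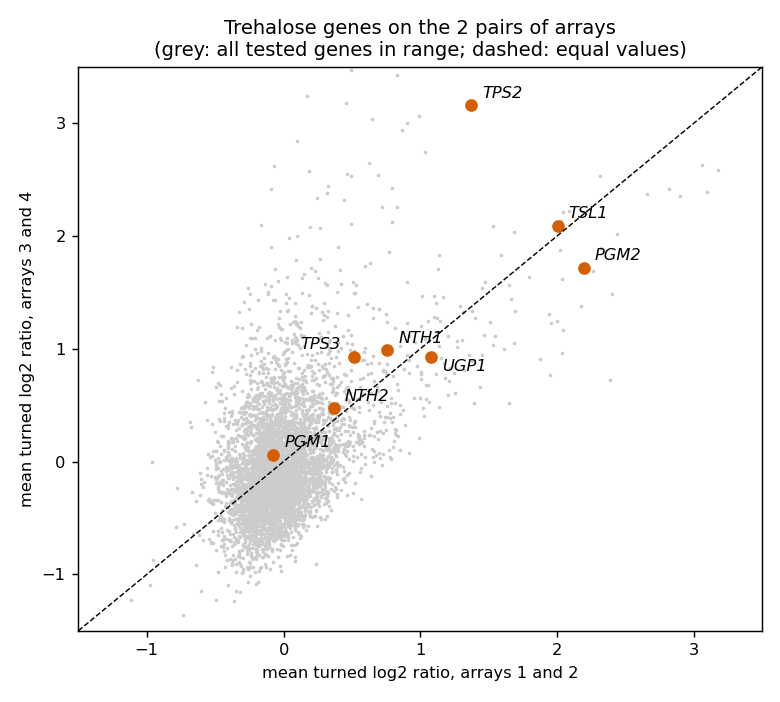
Mean turned log2 ratio on arrays 1 and 2 (horizontal) against arrays 3 and 4 (vertical) for the 8 trehalose genes, in orange, and tested genes within the plotted range, in grey; the dashed line marks equal values. TSL1 lies on the line at 2.00 and 2.09, TPS2 far above it at 1.37 and 3.16, and PGM2 below it at 2.19 and 1.72.

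Of 8 genes of glycogen synthesis and breakdown, 7 were tested. All 7 had positive means, against a median of -0.057 over all tested genes. Of the 7, 3 changed, all on the positive side, where 4.34% of all tested genes did (limma). GSY2 (YLR258W), the main glycogen synthase, had 1.31, 0.95, 2.26 and 1.15 on arrays 1 to 4, a mean of 1.42 ± 0.58 (SD, n = 4). GPH1 (YPR160W), glycogen phosphorylase, had a mean of 1.71 ± 0.14, and GDB1 (YPR184W), the debranching enzyme, 1.53 ± 0.20. A synthase, the phosphorylase and the debranching enzyme were thus on the side of TSL1 and NTH1. The median of the list was 0.34, and GLG1, GLG2, GSY1 and GLC3 had means from 0.088 to 0.34 and were not called.

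At the entry of glucose, 3 of 7 tested genes changed, all on the positive side, where 4.34% of all tested genes did. The list median was 0.74. HXK1 (YFR053C), the hexokinase used when glucose is short, had a mean of 1.33 ± 0.31 (SD, n = 4), the glucokinase gene GLK1 (YCL040W) 1.16 ± 0.21, and its paralogue EMI2 (YDR516C) 0.91 ± 0.30. HXK2, the hexokinase of growth on plentiful glucose, had 0.0035 ± 0.28. The branch enzymes PGI1 of glycolysis and ZWF1 of the pentose phosphate pathway had 0.12 ± 0.34 and 0.74 ± 0.50 without a call. ZWF1 was positive on all 4 arrays and just over the threshold (limma, adjusted p = 0.0536), and PGI1 was far from it (0.913). EMI2 lost its call without array 1 or 2 (limma, adjusted p = 0.0569 and 0.109).

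Among 10 tested regulators, 4 changed on the positive side, where 4.34% of all tested genes did. The list median was 0.48. DCS2 (YOR173W) had a mean of 1.62 ± 0.53 (SD, n = 4) and its paralogue DCS1 (YLR270W), a cap-scavenging enzyme linked to trehalase control, 0.89 ± 0.13. MSN4 (YKL062W), a transcription factor of the general stress response, had 0.76 ± 0.40. MSN2 (YMR037C), of the same list, had a similar mean of 0.69 ± 0.49, positive on all 4 arrays, and was not called (limma, adjusted p = 0.0942). BMH1 and BMH2, whose proteins bind Nth1, had 0.18 ± 0.16 and 0.087 ± 0.45 and were not called. MSN4 was called in 8 of 15 settings and lost its call without array 1, 2 or 4 (limma, adjusted p from 0.118 to 0.233), with a random culture block (0.0539), after scaling (0.0537), with the coding length trend removed (0.0953) and with at least 3 arrays admitted (0.0627). DCS1 lost its call without array 1 (adjusted p = 0.110).

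Of the 6 tested genes listed as using UDP-glucose or serving wall glucan synthesis, 0 changed (limma), where 4.55% of all tested genes did. Among 6 genes a count of 0 is near that background. At an unadjusted p under 0.05 there were 3 (limma), all on the positive side. Their median was 0.44. SKN1 (YGR143W) and KRE6 (YPR159W), both needed for branched wall glucan, had means of 0.65 ± 0.64 and 0.64 ± 0.31 (SD, n = 4), and FKS1 (YLR342W), a catalytic subunit of glucan synthase, 0.52 ± 0.40. The others of the list were smaller or on the negative side. GSC2 (YGR032W) had 0.84, 0.14, 1.10 and -0.63 on arrays 1 to 4, a mean of 0.36 ± 0.78. KRE5 had a mean of 0.053 ± 0.19 and ALG5 of -0.15 ± 0.22. Over the 4 lists, 10 of 30 tested genes changed, all on the positive side, where 4.34% of all genes did. Without array 1 the count was 6, where 1.59% of all genes were called on either side.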

How the data were processed

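The authors deposited, for each array, a log ratio of its 2 channels, taken as log2. Their numerator, base, background correction, normalization and rule for empty cells are unknown: not given in the sources used here. Per the labels' protocols, total RNA was labelled directly with Cy5-dUTP or Cy3-dUTP. After removal of 2 control spots, names were matched to the RefSeq R64 gene table (5677 of 6207, 23 through a synonym). No scaling was added.

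Arrays assumed to share a culture were averaged and fitted with limma (version 3.58.1, R 4.3.3). Per the labels, the hybridisations of a culture included a dye swap, so arrays of 1 dye orientation were assumed not to share a culture. Both pairings this leaves were fitted (1 with 2, 3 with 4, or 1 with 4, 2 with 3), the larger of both p-values was kept, and these were adjusted by Benjamini-Hochberg over 4788 genes. In the first pairing the prior degrees of freedom were infinite, so every gene had a standard error of 0.24. The p of this pairing thus follows the size of the mean and does not weigh a gene's own spread. It was the larger p, and so the one kept, for UGP1, NTH1, TPS3, NTH2 and PGM1. SDs are over arrays and mix cultures and dyes. Where 3 arrays were used, the printed mean is the plain mean over arrays. The p beside it tests the culture averages with equal weight, so its estimate can differ from that mean. The fit was tested on simulated data.

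The members, lists and tests were chosen with earlier results of these data known. Named were all members, every called gene of each list or, with none, its largest sizes, the 2 genes nearest to each called member over the 4 arrays, HSP12, CTT1 and SLT2; 1 called gene of the regulator list is not reported here. Others named from the lists (HXK2, PGI1, ZWF1, MSN2, BMH1, BMH2, FKS1, GSC2, KRE5, ALG5 and the uncalled glycogen genes) were added after their values were seen. Promoter motifs and protein identity were planned and not run, since no sequences were used here. Alternatives were each pairing alone, separate arrays, a random culture block, a dye term, centring, scaling, subtraction of a loess fit on coding length, at least 3 arrays, robust moderation, a fold minimum of 2 and leaving out each array.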

Additional observations from a re-analysis of the deposited data

How the results depend on the processing

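The 5 called trehalose genes became 2 to 5 when 1 array was left out, the 2 without array 1, where 1.59% of all genes were called. They became 7 with only the pairing of arrays 1 with 4 and 2 with 3, which called 1415 of 4788 genes. In the remaining alternatives the count was 4 to 6. Over all genes the 218 calls became 76 to 195 with 1 array left out, 1415 where only the pairing of arrays 1 with 4 and 2 with 3 was used, 116 with the coding length trend removed and 136 with a fold minimum of 2. The 10 called pathway neighbours became 6 to 10 with 1 array left out, 16 with that pairing alone and 6 with the fold minimum. A fold minimum removes small changes by construction, and the cause of the other shifts was not tested. The mean of PGM1, at -0.0066, turned to 0.044 with median centring and ran from -0.16 to 0.099 with 1 array left out, positive without array 1 (0.058) or array 3 (0.099), never with a call. Differences within paralogue pairs kept their direction in every setting run, from 1.80 to 2.28 for PGM2 over PGM1, 1.24 to 1.42 for TSL1 over TPS3 and 0.32 to 0.55 for NTH1 over NTH2 with 1 array left out. TSL1 and PGM2 were called in 15 of 15 settings without the fold minimum, TPS2 and UGP1 in 14, NTH1 in 12, TPS3 in 6, NTH2 in 1 and PGM1 in 0. No paired analysis was possible because the arrays form 1 group of ratios, each already within a culture. Signal over background is unknown, so what depth limits could not be judged.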

Other observations

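Genes that followed single trehalose genes most closely over the 4 arrays were found by the smallest root mean square difference of turned log2 ratios among 4788 tested genes. Nearest to TSL1 were the frame YDL023C, at 0.14, and GAD1 (YMR250W), glutamate decarboxylase, at 0.17, with means of 2.08 and 2.15. Nearest to PGM2 were HOR7 (YMR251W-A), named for its response to high osmolarity, at 0.078, and TMA10 (YLR327C), which encodes a ribosome-associated protein, at 0.25. NTH1 had FRA1 (YLL029W), a regulator of the iron regulon, at 0.035 and the wall protein gene NCW2 (YLR194C) at 0.12. UGP1 had DCS1 at 0.19 and NNR2 (YKL151C), a metabolite repair enzyme, at 0.20. All were called. Those nearest to TPS2 were further away, the transposon frame YFL-TYA at 0.43 and YCL042W at 0.49, and both had their highest value on array 3, at 4.27 and 3.63. With 4 arrays, likeness of this kind is a description.

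The genes next to the trehalose genes on the chromosomes were also read. Of 20 flanking protein-coding genes in the R64 table, 13 were tested and 0 were called (limma, 0 at an unadjusted p under 0.05). Over all tested genes 4.55% were called, so that a count of 0 among 13 is near the background. Their means ran from -0.32 for TIF11, beside TPS3, to 0.46 for YPK2, beside PGM2, with a median of -0.11. The table lists 0 genes that overlap a trehalose gene. Both flanking genes of TSL1 had a value on 0 arrays.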
